A study of Homo sapiens with 9 samples.

Results

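The expression of 10 genes of the nuclear factor kappa B (NF-kB) pathway was followed in A2780 human ovarian carcinoma cells exposed to DIG-MSK. The genes are the subunit genes NFKB1, NFKB2, RELA and RELB, the inhibitor genes NFKBIA and TNFAIP3, and the chemokine and cytokine genes CXCL1, CXCL2, CXCL8 and IL6. A gene was taken to be measured if a gene probe of the array carried the accession of one of its RefSeq transcripts. This held for 9 of the 10 genes, with 12 probes in all, out of 35010 genes with 42405 probes on the array. Expression of NFKB2 was not analysed here, and the gene enters the promoter counts below only. There were 3 groups of 3 arrays: untreated cells, cells given 8 nM DIG-MSK and cells given 80 nM DIG-MSK, the drug groups for 24 h. DIG-MSK is an analogue of mithramycin A, an antibiotic that binds C/G-rich DNA in the minor groove. A2780 is a single established line grown in serum-containing medium, no NF-kB stimulus is named in any group, and the study's methods describe the replicates as independent cultures.

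NF-kB is a family of dimeric transcription factors. In resting cells most dimers are held in the cytoplasm by inhibitor proteins such as IkB alpha, the product of NFKBIA. Signals from tumour necrosis factor, interleukin-1 or Toll-like receptors activate a kinase complex that marks IkB for degradation, after which the dimers enter the nucleus and bind κB sites in target promoters. The targets include NFKBIA and TNFAIP3, which shut the response off again, and chemokines that recruit neutrophils. The mRNA level of a subunit gene says nothing on where its protein is in the cell, and only mRNA was measured here.

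Promoter sequences are shown because DIG-MSK binds C/G-rich DNA and because κB sites define most of these genes as targets. RefSeq promoters of the human assembly GRCh38.p14 were found for 9 of the 10 genes (13 start sites), all but RELB. In the 250 bases before the start, a match to the κB consensus decamer or to its 9-base form GGAATTTCC lay at 9 of these 13 start sites, whereas 10.1% of all 35114 promoters held one. The 9 start sites belong to 8 genes, RELA being the gene without a match. The GC box GGGCGG, the core of the sites bound by Sp1, lay at 9 of the 13 start sites (6 genes), and in 42.6% of all promoters. Motifs were searched on both strands, and every match to the 9-base form except that of CXCL8 lies inside a match to the decamer. A match is a string of letters and not a measured binding site.

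In the subunit and inhibitor promoters below, written 5′ to 3′ on the gene's strand and ending at the base before the start, capitals mark κB matches and GC boxes. The window of NFKB1 is chr4:102501209-102501358 (+ strand), at 1 of its 2 start sites, with a κB match 49 to 40 bases upstream. The window of RELA is chr11:65663858-65664007 (- strand), also at 1 of its 2 start sites, and holds a GC box only. The window of NFKBIA is chr14:35404750-35404899 (- strand), with a κB match 81 to 72 bases upstream on the opposite strand and a GC box 60 to 55 bases upstream. The longer window of TNFAIP3 is chr6:137867009-137867258 (+ strand), shown because it holds 6 GC boxes, some of which overlap, ahead of 2 κB matches.
NFKB1: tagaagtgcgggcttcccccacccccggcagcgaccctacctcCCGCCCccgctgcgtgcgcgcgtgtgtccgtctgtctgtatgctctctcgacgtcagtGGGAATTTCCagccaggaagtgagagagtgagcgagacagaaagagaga
RELA: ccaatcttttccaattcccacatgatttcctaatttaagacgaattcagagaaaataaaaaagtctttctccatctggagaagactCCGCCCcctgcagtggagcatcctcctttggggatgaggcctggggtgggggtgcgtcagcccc
NFKBIA: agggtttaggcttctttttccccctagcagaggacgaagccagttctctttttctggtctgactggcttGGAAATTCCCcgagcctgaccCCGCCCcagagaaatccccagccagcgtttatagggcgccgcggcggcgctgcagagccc
TNFAIP3: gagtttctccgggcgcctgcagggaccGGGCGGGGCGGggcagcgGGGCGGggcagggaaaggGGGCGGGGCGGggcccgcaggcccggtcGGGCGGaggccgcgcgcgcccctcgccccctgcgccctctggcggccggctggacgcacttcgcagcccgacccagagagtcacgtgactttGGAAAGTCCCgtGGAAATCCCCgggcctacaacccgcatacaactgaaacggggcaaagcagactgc

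The chemokine and cytokine promoters have fewer GC boxes, 1 in CXCL1 and 0 in CXCL2, CXCL8 and IL6. The share of G and C over the 250 bases was 65.6% in CXCL1, 64.4% in CXCL2, 47.6% in IL6 and 37.6% in CXCL8, with a median of 58% over all promoters. It was 74% in TNFAIP3, 59.2% in NFKBIA and 72% at the NFKB1 start site shown above. For RELA it was 48.4% at the start site shown above and 79.2% at the other. The windows are chr4:73869243-73869392 (+ strand) for CXCL1, chr4:74099196-74099345 (- strand) for CXCL2, chr4:73740419-73740568 (+ strand) for CXCL8 and chr7:22727050-22727199 (+ strand) for IL6, with capitals as above. CXCL1 and CXCL2 are neighbouring copies of one gene, and 49 of 60 bases around their κB match were identical (81.7%). CXCL8 also holds an AP-1 match (TGANTCA, in 6.57% of all promoters) 137 to 131 bases upstream.
CXCL1: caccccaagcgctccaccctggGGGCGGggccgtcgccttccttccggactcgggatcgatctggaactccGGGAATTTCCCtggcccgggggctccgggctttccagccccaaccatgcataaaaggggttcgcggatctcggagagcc
CXCL2: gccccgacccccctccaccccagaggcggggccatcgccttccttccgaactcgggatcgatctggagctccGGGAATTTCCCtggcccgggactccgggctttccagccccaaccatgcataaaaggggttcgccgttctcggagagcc
CXCL8: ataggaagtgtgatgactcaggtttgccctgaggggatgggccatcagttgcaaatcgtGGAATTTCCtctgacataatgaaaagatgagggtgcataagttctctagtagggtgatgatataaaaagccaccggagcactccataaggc
IL6: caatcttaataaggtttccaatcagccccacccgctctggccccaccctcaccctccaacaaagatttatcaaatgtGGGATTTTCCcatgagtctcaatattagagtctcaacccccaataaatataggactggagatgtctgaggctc

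A level below is the log2 of the processed spot intensity minus the log2 of the 75th percentile of its array, so that 0 is the 75th percentile. Levels of different probes cannot be compared with each other, since each probe binds its target with its own strength. The 75th percentile lay between 832 and 1170 intensity units on the 9 arrays, and correlations between arrays of a group lay between 0.989 and 0.996 across genes. Groups were compared with limma across 21832 genes, and a gene was called when it differed by at least 1.5-fold (0.585 on the log2 scale) with a Benjamini-Hochberg adjusted p under 0.05. The untreated and 8 nM arrays shared slide 1 and a scan, while those of 80 nM filled slide 2 and had a scan of their own, so a response to 80 nM and a difference between slides cannot be told apart. Of 9 epithelial markers, EPCAM and the keratin genes KRT7, KRT8, KRT18 and KRT19 were well above background on all 9 arrays. PAX8 was so on 3 arrays, and CDH1, WT1 and MUC16 on no array. EPCAM was called higher at 8 nM (0.90) and lower at 80 nM (−0.93). Of 9 leukocyte markers, PTPRC, CD14, CD68 and CD79A were well above background on all 9 arrays. ITGAM was so on all but 8 nM replicate 2, CD3E on 3 arrays and CD2 on 2. The log2 of the summed level of 9 leukocyte markers lay from 1.49 to 1.68 in untreated cells, from 1.11 to 1.73 with 8 nM drug and from 1.38 to 1.60 with 80 nM, and most of that sum was CD79A. Without CD79A it lay from −2.12 to −1.78, from −2.13 to −2.03 and from −1.59 to −1.40, HLA-DRA and MS4A1 being at background throughout and CD68 being called higher at 80 nM (1.25). The part of these differences in the results below was not tested.

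A gene entered the test if in at least 1 group its signal was well above background on each of the 3 arrays. Of the 9 measured genes, 5 did so: NFKB1, RELA, RELB, NFKBIA and CXCL1. None of the 5 was called in any comparison. RNA came from whole cultures, so fewer cells with a transcript and less of it in each cell cannot be told apart. Over all genes, 5.06% were called between 8 nM and untreated cells, 34.2% between 80 nM and untreated cells and 32.7% between 80 nM and 8 nM. At an unadjusted p under 0.05 with no fold limit, RELA and RELB passed at 8 nM (30.8% of all genes), RELA at 80 nM (63.3%) and CXCL1 between 80 nM and 8 nM (62.2%), where neither group cleared the background filter. At an adjusted p under 0.05 with no fold limit, 0 members passed at 8 nM (13.6% of all genes) and 0 at 80 nM (59%), and CXCL1 passed between the concentrations (57.6%). RELA was counted here by the brighter of its 2 probes. The dimmer one passed this rule at 80 nM and between the concentrations. Under alternative fits RELA passed it in 6 of 19 at 80 nM and in 1 of 19 at 8 nM. These fits used the brighter probe, except for the one with the mean of both probes. TNFAIP3, CXCL2, CXCL8 and IL6 were not tested because their probes were too dim, and they are described by their intensities.

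NFKB1 encodes p105, the precursor of the DNA-binding subunit p50. Its 10 spots were well above background on every array. The level was 1.15, 1.14 and 0.96 on the untreated arrays, 0.98, 1.24 and 1.11 at 8 nM and 1.48, 1.15 and 1.27 at 80 nM. The 8 nM arrays overlapped the untreated ones, and the 80 nM arrays lay just above them, by less than 0.01 at the closest pair. The change at 8 nM was 0.03 (standard error 0.11, adjusted p = 0.883, limma), and that at 80 nM was 0.22 (adjusted p = 0.116, limma), with a 95% interval from −0.03 to 0.48.

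RELA encodes p65, the subunit that carries the main activation domain of the classical dimer. It has 2 probes, which were well above background on all arrays. With the brighter probe, the level was −0.03, −0.29 and −0.07 in untreated cells, 0.15, −0.05 and 0.30 at 8 nM and 0.19, 0.09 and 0.15 at 80 nM. One 8 nM array fell within the untreated range and no 80 nM array did. The changes were 0.26 at 8 nM (adjusted p = 0.139, limma) and 0.28 at 80 nM (adjusted p = 0.0545, limma), each with a standard error of 0.11. The dimmer probe gave −0.75, −0.79 and −0.69 in untreated cells, −0.63, −0.87 and −0.59 at 8 nM, and −0.20, −0.37 and −0.27 at 80 nM, where all arrays stood above all others. Its change was 0.05 at 8 nM and 0.47 at 80 nM (standard error 0.09, adjusted p = 0.00274, limma), which is 1.38-fold and under the fold limit. The probes of RELA thus disagreed at 8 nM and between the concentrations (0.01 and 0.42 for 80 nM against 8 nM), and had the same direction at 80 nM against untreated cells.

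RELB encodes the subunit that pairs with p52 in the alternative pathway. Its level was 1.87, 1.69 and 1.64 in untreated cells, 1.92, 2.21 and 1.83 at 8 nM and 1.70, 1.77 and 1.82 at 80 nM. The 8 nM arrays overlapped the untreated ones, with 8 nM replicate 2 above all others, and the 80 nM arrays fell inside the untreated range. The change was 0.26 at 8 nM (adjusted p = 0.160, limma), 0.03 at 80 nM (adjusted p = 0.829, limma) and −0.23 between 80 nM and 8 nM (adjusted p = 0.113, limma), with a standard error of 0.11 in each. Across these members, the 3 arrays of the groups did not overlap for 0 of 5 genes at 8 nM against untreated cells, for NFKB1 and RELA at 80 nM against untreated cells and for RELB at 80 nM against 8 nM. Over all genes tested, the groups did not overlap in 34.2%, 72% and 64.8%.

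NFKBIA encodes IkB alpha, the inhibitor whose own transcription is driven by NF-kB and which is therefore often read as a gauge of the activity of the pathway. Its 10 spots were bright, between 4105 and 6201 intensity units over the untreated arrays. The level was 2.38, 2.43 and 2.35 in untreated cells, 2.15, 2.53 and 2.27 at 8 nM and 2.38, 2.39 and 2.42 at 80 nM. The groups shared the same range, and the spread was widest at 8 nM (SD 0.20, n = 3, against 0.04 in untreated cells and 0.02 at 80 nM). The change was −0.07 at 8 nM (adjusted p = 0.669, limma; 95% interval from −0.29 to 0.16) and 0.01 at 80 nM (adjusted p = 0.919, limma; 95% interval from −0.21 to 0.24), so that any change over the 1.5-fold limit lay outside both intervals.

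**Figure D1:**
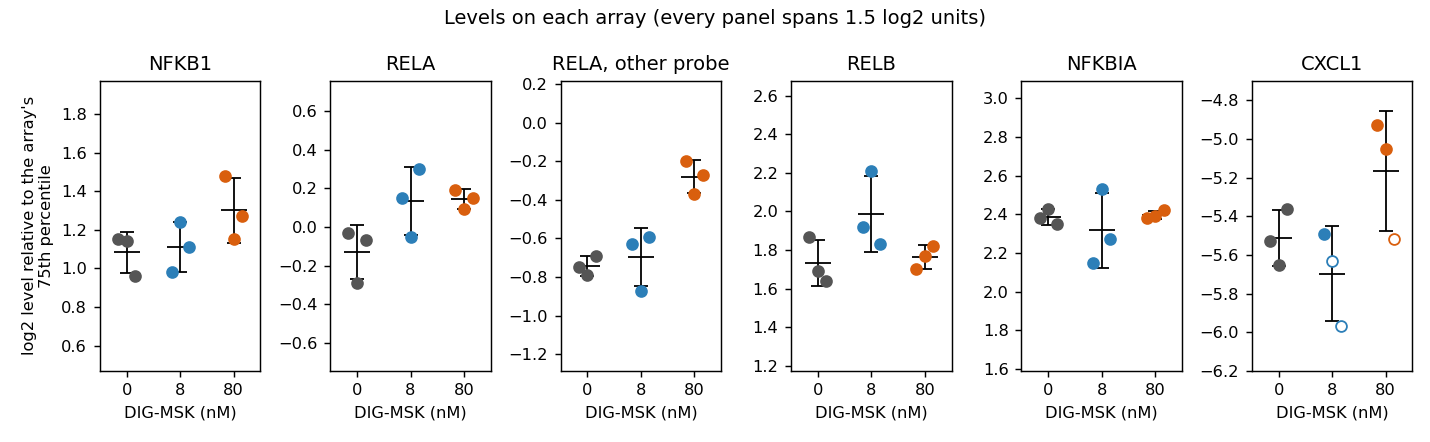
Log2 level relative to the array's 75th percentile (vertical axis, own scale in each panel, each spanning 1.5 units) for the 6 probes of the 5 genes tested, at 0, 8 and 80 nM DIG-MSK. Each point is an array, open where the probe was not well above background, and bars are the mean and SD of 3 arrays; NFKBIA keeps to one range in the 3 groups, and the dimmer RELA probe stands apart at 80 nM.

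TNFAIP3 encodes A20, a ubiquitin-editing enzyme that ends NF-kB signalling. Its probe has 2 spots and did not stand well above background on any array as a whole. The median intensity was 6.48, 3.66 and 5.27 in untreated cells, 6.89, 60.9 and 14.6 at 8 nM and 3.82, 7.92 and 4.51 at 80 nM, whereas the negative control spots had medians between 3.17 and 4.54. The high value of 8 nM replicate 2 came from a single spot of 119 beside one of 3.29, and 2 of 6 spots were well above background at 8 nM against 0 of 6 in each of the other groups. No fold change is given for it.

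CXCL1 encodes a neutrophil-attracting chemokine first known as growth-related oncogene alpha. With its brighter probe, the median intensity was 18.4, 22.7 and 24.99 in untreated cells, 25.9, 16.9 and 19.0 at 8 nM and 32.8, 27.1 and 20.3 at 80 nM. The probe was well above background on 3 of 3 untreated arrays, 1 of 3 arrays at 8 nM and 2 of 3 at 80 nM, so it entered the test through the untreated group alone. The levels were −5.53, −5.65 and −5.36, then −5.49, −5.63 and −5.97, then −4.93, −5.05 and −5.52, with overlap between all groups. The change was −0.18 at 8 nM (adjusted p = 0.522, limma), 0.35 at 80 nM (adjusted p = 0.128, limma) and 0.53 between 80 nM and 8 nM (standard error 0.18, adjusted p = 0.0340, limma). The last value sets 2 groups side by side that did not pass the filter on background, and over the alternatives it ran from 0.17 with spike-in scaling to 0.71 without 80 nM replicate 3, with adjusted p from 0.00813 to 0.635, so no difference is read from it. The second CXCL1 probe was at 3.16 to 7.09 on all arrays, and well above background on none.

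CXCL2 encodes a closely related chemokine and has 2 probes, neither of which passed the filter. The brighter one, a single spot, read 18.0, 20.4 and 16.5 in untreated cells, 18.86, 13.4 and 34.4 at 8 nM and 9.43, 16.1 and 8.87 at 80 nM, and was well above background on 2, 1 and 1 of 3 arrays. The other read 9.07, 8.88 and 11.6 in untreated cells, 12.9, 7.04 and 13.0 at 8 nM and 3.39, 2.89 and 3.91 at 80 nM. The lowest readings of both probes came from 80 nM arrays. The groups of the brighter probe overlapped, and the other probe stood lower on every 80 nM array than on the rest, inside the range of the negative controls, but no array had this probe well above background, so no fold change is given. Whether transcripts of CXCL1, CXCL2 and CXCL3 bind each other's probes was not tested.

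CXCL8 encodes interleukin-8, a chemokine of neutrophils. It read 2.93, 3.30 and 3.45 in untreated cells, 3.95, 3.47 and 4.70 at 8 nM and 3.45, 2.95 and 3.99 at 80 nM. On 8 of the 9 arrays it lay below most of the negative controls, between 24.7% and 27.6% of which were dimmer, and on 8 nM replicate 3 the share was 59.1%. A transcript of CXCL8 was thus not detectable with this probe in any group.

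IL6 encodes interleukin-6, a cytokine that signals through the receptor subunit gp130 and STAT3. Its probe has 10 spots, and their median was 5.76, 5.91 and 5.81 in untreated cells, 4.82, 3.80 and 5.01 at 8 nM and 9.93, 9.03 and 7.43 at 80 nM. The groups did not overlap, the 80 nM arrays being highest and the 8 nM arrays lowest. On no array was the probe well above background, with 1 of 30 spots passing at 80 nM, 2 of 30 at 8 nM and 0 of 30 in untreated cells. The 2 spots passing at 8 nM, of 35.3 on replicate 2 and 101 on replicate 3, were flagged as outliers. All these readings came near the floor of the array, and no fold change is given.

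**Figure D2:**
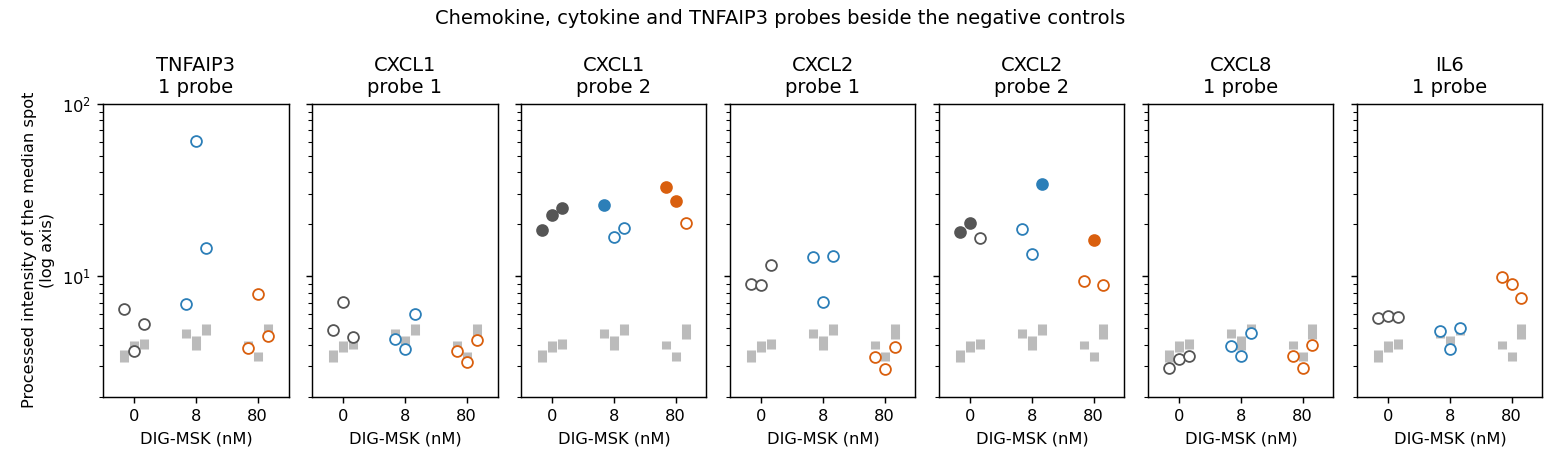
Processed intensity of the median spot on each array (log axis, 2 to 100 intensity units) for the 7 probes of TNFAIP3, CXCL1, CXCL2, CXCL8 and IL6 at 0, 8 and 80 nM DIG-MSK. Filled points were well above background, and each grey bar runs from the median to the 95th percentile of the negative control spots of that array; CXCL8 stays at the controls, and the first CXCL2 probe drops to their level at 80 nM only.

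In the size of their changes, the 5 members tested had a median of 0.18 at 8 nM, 0.22 at 80 nM and 0.19 between the concentrations on the log2 scale, irrespective of sign. The corresponding medians over all genes tested were 0.19, 0.42 and 0.41. For NFKB1, RELA with its brighter probe, RELB and NFKBIA the whole 95% interval lay inside the 1.5-fold limit in each of the 3 comparisons, and the interval of CXCL1 reached past it in each. That of the dimmer RELA probe also reached past it, from 0.26 to 0.68 at 80 nM against untreated cells and from 0.21 to 0.63 between the concentrations. Over all genes, the interval lay inside the limit for 62.5% at 8 nM, 37.2% at 80 nM and 37.9% between the concentrations. With scaling to spike-in probes, under which the median over all genes went from 0.08 to −0.20 at 80 nM, the 80 nM changes were −0.06 for NFKB1, −0.25 for RELB and −0.27 for NFKBIA, and that of RELA rounded to 0, so none of the directions of the subunit and inhibitor genes at 80 nM is settled.

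**Figure D3:**
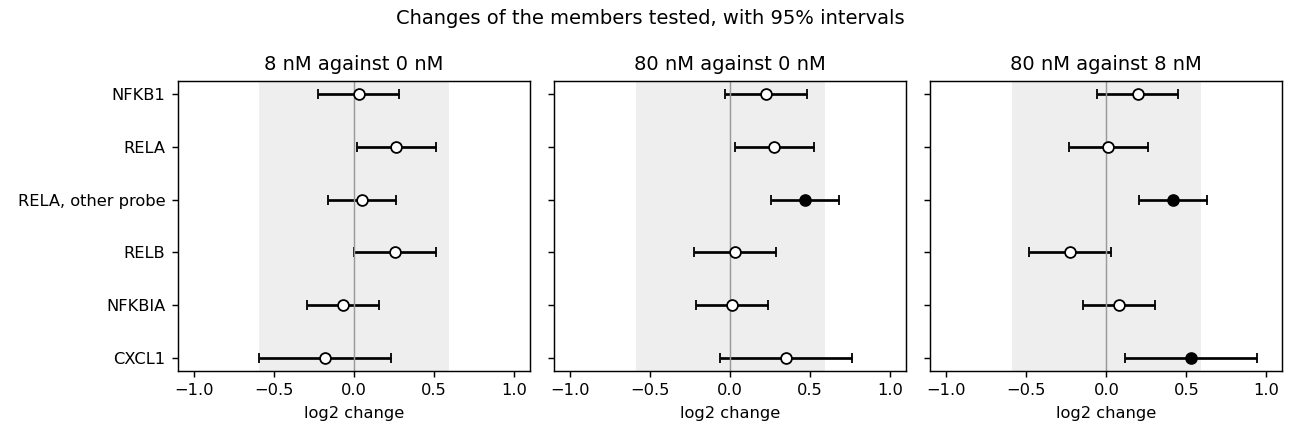
Log2 change (horizontal axis) with its 95% interval from limma for the 5 genes tested and the dimmer RELA probe, in the 3 comparisons. The grey band is the range under 1.5-fold, and filled points have an adjusted p under 0.05; the intervals of NFKB1, RELB and NFKBIA stay within the band.

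The other Rel and IkB genes on the array were read from a list of 6: REL, NFKBIB, NFKBIE, NFKBID, NFKBIZ and BCL3. All 6 were tested, and 0 of 6 were called in any comparison. With no fold limit, and chosen here after their values were seen, NFKBIB passed at 8 nM (−0.36, adjusted p = 0.0106, limma), and REL (0.31, adjusted p = 0.0494), NFKBIE (0.43, adjusted p = 0.0116) and BCL3 (−0.26, adjusted p = 0.0129) passed at 80 nM by limma. Over all genes, 13.6% passed this rule at 8 nM and 59% at 80 nM. Between the concentrations, 3 of the 6 were higher and 1 lower by this rule, which 57.6% of all genes passed.

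Most genes for ligands that start the signal were too dim to test. Of 10 ligand genes 1 was tested, and TNF, IL1A, IL1B and LTA were among the 9 that did not pass the filter. The ligand tested, IL33, an alarmin of the interleukin-1 family, was at least 2.21-fold higher at 80 nM than in untreated cells, in which it was not well above background (adjusted p = 0.000105, limma). Of 15 receptor genes 8 were tested, with 0 called at 8 nM and 3 lower at 80 nM, among them CD40, at least 1.90-fold lower and not well above background at 80 nM (adjusted p = 0.000263, limma). With normexp background correction or the authors' log2 values, IL33 and CD40 kept their direction and came under the fold limit.

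Of 20 adaptor and kinase genes, 19 were tested, with 1 lower at 8 nM and, at 80 nM, 1 higher and 2 lower. TRAF2, the adaptor that links tumour necrosis factor receptors to the kinases, stood at 3.70, 3.49 and 3.52 in untreated cells, 2.93, 3.19 and 2.79 at 8 nM and 1.64, 1.74 and 1.75 at 80 nM. The groups of TRAF2 were fully separate, and it fell by 0.60 at 8 nM (standard error 0.11, adjusted p = 0.0107, limma) and by 1.86 at 80 nM (adjusted p = 3.49e-06, limma). The 8 nM change came close to the fold limit and came under it in 8 of 21 alternatives, among them those without untreated replicate 1 or without 8 nM replicate 1 or 3. TRAF3, which restrains the alternative pathway, fell by 1.06 at 80 nM (adjusted p = 0.00022, limma). Of 11 other feedback inhibitors, all tested, 0 were called at 8 nM, and at 80 nM TANK rose by 0.80 and OTULIN fell by 0.89. The call of TANK was lost with spike-in scaling, where the change was 0.32, and with the mean of the gene's probes. Of 10 genes for receptors and signal carriers of IL6 and the chemokines, 6 were tested, with 0 called at 8 nM and JAK2 (0.77) and TYK2 (0.61) higher at 80 nM, while IL6R, CXCR1 and CXCR2 did not pass the filter. The call of JAK2 was lost in 2 of 21 alternatives, with 0.49 as the lowest change, and that of TYK2 in 6 of 21, among them those without untreated replicate 2 or 80 nM replicate 2, with 0.33 as the lowest. Together with the other target genes described below, these make 7 lists. Over the 7 lists, 7 of 69 genes tested were called at 8 nM (10.1%), 20 at 80 nM (29%) and 22 between the concentrations (31.9%). The shares over all genes were 5.06%, 34.2% and 32.7%. Of the 7 genes called at 8 nM, 6 were other target genes, as were 4 of those higher and 5 of those lower at 80 nM.

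Other known targets of NF-kB were called in both directions at 80 nM and in 1 direction at 8 nM. From a list of 27, 18 genes were tested, and 6 were higher and 0 lower at 8 nM, with a median change of 0.07 against −0.06 over all genes. At 80 nM 4 were higher and 5 lower, with a median of −0.14 against 0.08 over all genes, and between the concentrations 3 were higher and 8 lower. By direction, the shares called over all genes were 3.71% higher and 1.35% lower at 8 nM. They were 18.4% and 15.8% at 80 nM. Between the concentrations, 4133 of 21832 genes were called higher and 2999 (13.7%) lower.

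The 5 genes lower at 80 nM were 3 chemokine genes, ICAM1 and IRF1. CXCL10, a T cell chemokine, stood at −2.59, −3.27 and −3.46 in untreated cells, −3.40, −3.33 and −3.14 at 8 nM and −7.91, −7.98 and −7.53 at 80 nM. The 80 nM arrays lay far below the others and were not well above background, which makes CXCL10 at least 7.27-fold lower than in untreated cells (adjusted p = 1.02e-06, limma). On the same grounds CXCL11 was at least 5.71-fold lower, CXCL6 at least 4.24-fold lower and ICAM1, which holds leukocytes to the vessel wall, at least 3.84-fold lower. These bounds hold for the processed intensities only. With normexp background correction, which gave the smallest changes, the 4 genes kept their direction and their calls at −1.18 for CXCL10, −0.93 for CXCL11, −1.0 for CXCL6 and −0.81 for ICAM1. IRF1, a transcription factor that acts beside NF-kB at such promoters, stood at 0.39, −0.77 and −0.30 in untreated cells, 0.08, −1.05 and −0.79 at 8 nM and −2.14, −2.25 and −1.71 at 80 nM, and fell by 1.81 (standard error 0.36, adjusted p = 0.00267, limma). None of these 5 genes was called at 8 nM.

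The genes higher at 8 or 80 nM included LIF, EBI3, BIRC2, BIRC3 and IER3. LIF, a cytokine that shares gp130 with IL6, stood at −1.36, −1.32 and −0.87 in untreated cells, 0.15, 0.07 and 0.01 at 8 nM and 0.75, 0.79 and 0.71 at 80 nM. The 3 groups were fully separate, and LIF rose by 1.26 at 8 nM (standard error 0.13, adjusted p = 0.000733, limma) and by 1.93 at 80 nM (adjusted p = 6.33e-06, limma). EBI3, a subunit of the cytokine interleukin-27, stood at −3.89, −4.26 and −4.15 in untreated cells, −2.04, −2.34 and −2.20 at 8 nM and −2.77, −2.72 and −2.75 at 80 nM. The groups of EBI3 were again fully separate, with the 8 nM arrays highest. It rose by 1.91 at 8 nM (standard error 0.11, adjusted p = 6.19e-05, limma) and by 1.35 at 80 nM (adjusted p = 2.34e-05, limma). BIRC3, an inhibitor of apoptosis, stood at background in untreated cells and was at least 1.98-fold higher at 8 nM and at least 4.69-fold higher at 80 nM. Its neighbour BIRC2 rose by 1.76 at 80 nM, with a change of −0.03 at 8 nM that did not pass. IER3 (0.78, adjusted p = 0.00311, limma), a survival gene of the early response, was higher at 8 nM and had a change of −0.05 at 80 nM. With normexp correction or the authors' log2 values, BIRC3 fell under the fold limit at 8 nM, with 0.23 as the lowest change over the alternatives. At 80 nM it stayed called, with 0.83 as the lowest change, so its bounds too hold for the processed intensities only.

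**Figure D4:**
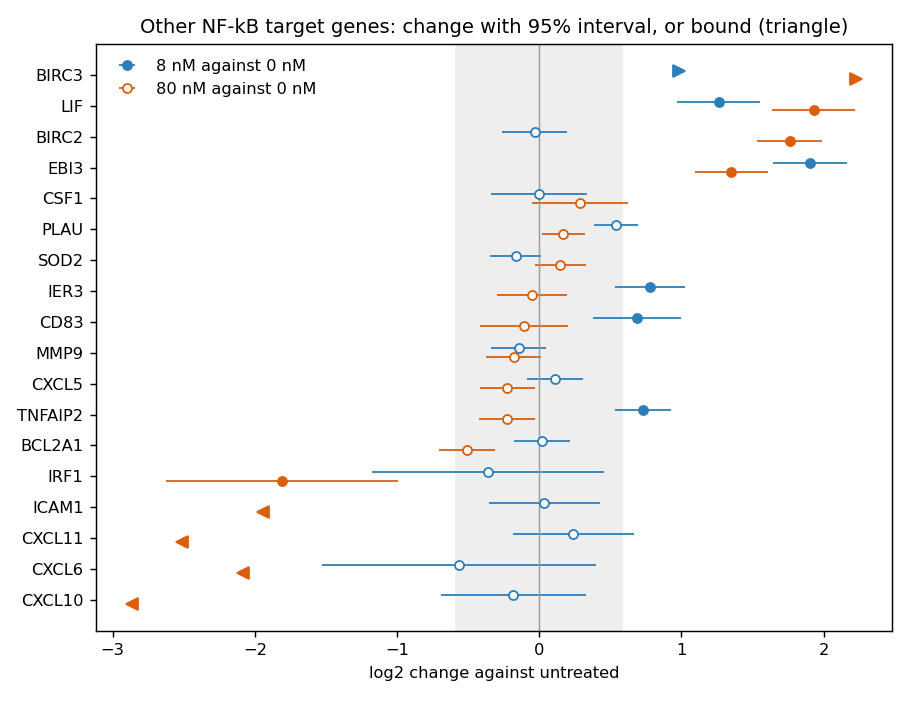
Log2 change against untreated cells (horizontal axis) for the 18 other target genes tested, at 8 nM (blue) and 80 nM (orange). Circles with bars are changes with 95% intervals, filled where called, and the grey band is the range under 1.5-fold. Triangles stand at the "at least" change of called genes with a group not well above background. That change sets the group at the higher of its own signal and the lowest signal well above background on each array. It holds for the processed intensities only. CXCL10, CXCL11, CXCL6, ICAM1 and IRF1 lie to the left at 80 nM only, and BIRC3, LIF and EBI3 to the right at both concentrations.

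The patterns over the 9 arrays that came closest to those of the members were looked up among 12697 named genes well above background on all arrays. For NFKB1 they were DPM1 (Pearson r = 0.973) and ALDH18A1 (0.957), for RELA EDNRA (0.955) and ATP6AP2 (0.9502), for RELB BRD8 (0.973) and NME1 (0.972), and for NFKBIA ELMOD2 (0.972) and ANXA7 (0.954). These are the highest of many correlations over 9 arrays that share slides and scaling, and are given as a description only.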

How the data were processed

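Total RNA of 9 samples was labelled with Cy3 and hybridised to 1-colour Agilent arrays of 62976 spots. The authors scanned the arrays and subtracted background with Agilent Feature Extraction 10.7.3.1 (submitters' processing notes), and the deposited processed intensity is not scaled between arrays. The authors also deposited log2 values per probe with an unstated scale (medians between 6.60 and 6.61), which followed the log2 median spot signal and were used as an alternative only. The lowess step named in the methods could not be traced on 1-colour arrays.

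Here log2 intensity minus the array's 75th percentile was used. Control and outlier spots were left out, spots of a probe averaged, and probes kept (26457) if, in 1 group or more, most of their spots stood well above background on each of the 3 arrays. The brightest kept probe stood for a gene. A group not well above background was set at the higher of its own signal and the lowest signal well above background on each array, which gives the "at least" folds. limma 3.58.1 in R 4.3.3 fitted all 9 arrays without covariates, with Benjamini-Hochberg adjustment over 21832 genes, and was tested on simulated data. Same-numbered replicates deviated together between untreated and 8 nM cells (correlations of 0.10 to 0.16 in the 3 pairs, a hint from the data), and not at 80 nM (−0.12 to 0.02); the fit without a replicate block is given. Alternatives were normexp (offset 50, on the median spot signal, as no mean signal is in the files), quantile, median and spike-in scaling, the authors' values, 2 other filters, the mean of a gene's probes, only the groups compared, a replicate block, 2 other call rules and each array left out.

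A RefSeq gene table named 25715 of the 27245 probes that carry a RefSeq accession. Promoter sequences are RefSeq's. Members and gene lists were chosen with earlier results of these data known. At most the 4 largest called genes per list and comparison were to be named, and those named beyond that were chosen after their values were seen. 3 arrays per group limit the precision.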

Additional observations from a re-analysis of the deposited data

How the results depend on the processing

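The count of members called stayed 0 at 8 nM and at 80 nM against untreated cells under every alternative run. Between 80 nM and 8 nM it became 1 without the filter on dim probes (IL6, which no array had well above background) and 1 with no fold limit (CXCL1), and ranged from 0 to 1 over the fits that each lacked 1 array, being 1 (CXCL1) without 8 nM replicate 1 and without 80 nM replicate 3. The genes of the pathway lists called at 8 nM, 7 of 69 at the main setting, numbered 3 with spike-in scaling and 15 with no fold limit (13.6% of all genes). With no fold limit, 20 of 69 became 39 at 80 nM (59% of all genes), and 22 became 48 between the concentrations (57.6%). With a filter on all 9 arrays, which left 59 genes of the lists to test, they became 11 and 14. With a replicate block 0 members were called in each comparison, with 8, 20 and 22 genes of the lists, and no call of a member changed.

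Changes of members turned sign under some settings, none of them called. Not all of these were near 0 at the main setting, where RELA was 0.28 and NFKB1 0.22 at 80 nM against untreated cells. At 8 nM against untreated cells, CXCL1 was 0 with normexp (its sign turned before rounding) and 0.08 with the authors' values, and NFKBIA was 0.01 with spike-in scaling. At 80 nM against untreated cells, NFKBIA was −0.02 with normexp, −0.05 with median scaling, −0.27 with spike-in scaling and −0.01 with the authors' values, RELB was −0.03, −0.25 and −0.03 with the last 3, and spike-in scaling gave −0.06 for NFKB1 and 0 for RELA. Between 80 nM and 8 nM, RELA was −0.01 with quantile normalization, −0.10 with median scaling, −0.35 with spike-in scaling and 0 with the authors' values, NFKBIA was −0.03 with median and −0.28 with spike-in scaling, and NFKB1 was −0.16 with spike-in scaling. With each array left out, the range was −0.04 to 0.10 for NFKB1 at 8 nM, −0.17 to 0.02 for NFKBIA at 8 nM, −0.02 to 0.10 for RELB and −0.01 to 0.03 for NFKBIA at 80 nM, and −0.08 to 0.10 for RELA and −0.01 to 0.19 for NFKBIA between the concentrations. The cause was not tested.

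Spike-in scaling gave 1807 genes higher and 4962 lower at 80 nM against untreated cells, where the main setting gave 4017 and 3448, and 1298 and 5065 between the concentrations, against 4133 and 2999. The called genes of the lists then split into 6 higher and 13 lower at 80 nM, against 9 and 11. Between the concentrations they split into 3 higher and 28 lower, against 8 and 14. Slide as a block could not be fitted, because the 80 nM arrays alone filled slide 2. Signal over background limits what can be said of TNFAIP3, CXCL1, CXCL2, CXCL8 and IL6.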
